A study of Mus musculus with 80 samples.

Results

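The 10 genes described here, Fos, Fosb, Jun, Junb, Jund, Egr1, Nr4a1, Ier2, Atf3 and Zfp36, belong to the immediate early or rapid response genes, and were taken as a list of symbols and matched to the Ensembl IDs of the deposited count table. All 10 were found among the 14688 genes of the table, and all 10 reached the minimum of 15 counts in at least 1 library for the comparison of tissues, in which 11307 genes were tested. Fosb reached it in 1 growth plate and 1 calvaria library. Atf3 reached it in no cortical bone library. RNA came from C57BL/6J female mice aged 21 days, of which 33 gave 80 libraries, and 30 ng of RNA went into a library. The growth plate, the calvaria (the frontal bone, with periosteum and suture tissue) and the femoral cortical bone (with periosteum and endosteum, its marrow washed out) were each sampled in WT mice, in MMP2-/- and MMP9-/- mice, which lack a gelatinase in all cells, and in MMP2/9 double knockout mice (MMPdKO), bred by crossing the single knockout lines. The growth plate groups held 7 WT, 6 MMP2-/-, 7 MMP9-/- and 7 MMPdKO libraries, the calvaria held 7 per genotype, and the cortical bone held 7, 5, 7 and 6.

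Immediate early genes are transcribed within minutes of a stimulus from transcription factors that are already present in the cell, without new protein synthesis. Growth factors, mechanical load, calcium and stress all induce them, and the dissection and dissociation of a tissue is known to do so as well. Fos and Fosb proteins pair with Jun, Junb or Jund to form the transcription factor AP-1, which in bone acts in both osteoblasts and osteoclasts, where Fos is needed for osteoclast formation. The mice were killed with CO2 and the bone samples were flash-frozen, and the time from death to freezing of each library was not given in the sources used here. What dissection adds to a level and what the tissue itself expresses can therefore not be told apart between tissues. Handling may also have differed between mice and genotypes within a tissue, and its part in those comparisons cannot be told apart either.

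The bases before the start site are shown for 6 members, those that passed in 2 of the 3 tissue comparisons described below. Fos and Junb were higher in the growth plate than in both bones, Jun and Zfp36 were higher in the calvaria than in both other tissues, and Jund and Nr4a1 were lower in the cortical bone than in both. The sequences are from RefSeq (GRCm38.p6) and give 250 bases up to the base before the RefSeq start site, 5′ to 3′ along the gene. Capitals mark the short cAMP response element TGACG (or CGTCA, the same site on the other strand), to which CREB and ATF proteins bind, and in Zfp36 the CArG box, to which serum response factor binds. Jun and Jund, without capitals, held neither in the window shown.
Fos (chr12:85473640-85473889, plus strand): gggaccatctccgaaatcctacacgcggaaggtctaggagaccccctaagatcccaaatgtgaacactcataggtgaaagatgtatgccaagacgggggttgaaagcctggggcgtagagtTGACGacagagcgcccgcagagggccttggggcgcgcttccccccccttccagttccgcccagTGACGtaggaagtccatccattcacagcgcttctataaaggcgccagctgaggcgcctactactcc
Jun (chr4:95052223-95052472, minus strand): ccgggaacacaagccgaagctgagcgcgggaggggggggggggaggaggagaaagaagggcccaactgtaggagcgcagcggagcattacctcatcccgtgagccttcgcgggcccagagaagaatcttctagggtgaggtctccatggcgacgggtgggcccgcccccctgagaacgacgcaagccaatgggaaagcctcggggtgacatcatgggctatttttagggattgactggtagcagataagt
Junb (chr8:84978749-84978998, minus strand): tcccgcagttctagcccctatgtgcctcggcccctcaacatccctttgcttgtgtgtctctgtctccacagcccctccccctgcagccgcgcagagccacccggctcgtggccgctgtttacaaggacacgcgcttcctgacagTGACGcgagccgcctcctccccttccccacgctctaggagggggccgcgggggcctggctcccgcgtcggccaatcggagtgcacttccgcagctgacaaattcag
Jund (chr8:70697489-70697738, plus strand): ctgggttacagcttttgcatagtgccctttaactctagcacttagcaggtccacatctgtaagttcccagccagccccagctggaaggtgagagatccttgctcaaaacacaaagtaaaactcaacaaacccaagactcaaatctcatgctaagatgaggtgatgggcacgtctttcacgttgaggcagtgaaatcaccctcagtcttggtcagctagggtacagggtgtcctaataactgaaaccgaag
Nr4a1 (chr15:101266596-101266845, plus strand): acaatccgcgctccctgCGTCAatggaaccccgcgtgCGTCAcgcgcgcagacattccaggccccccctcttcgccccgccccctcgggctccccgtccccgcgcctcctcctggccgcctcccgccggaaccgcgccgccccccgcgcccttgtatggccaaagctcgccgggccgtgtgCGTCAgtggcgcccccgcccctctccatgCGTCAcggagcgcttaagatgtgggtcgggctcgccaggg
Zfp36 (chr7:28379229-28379478, minus strand): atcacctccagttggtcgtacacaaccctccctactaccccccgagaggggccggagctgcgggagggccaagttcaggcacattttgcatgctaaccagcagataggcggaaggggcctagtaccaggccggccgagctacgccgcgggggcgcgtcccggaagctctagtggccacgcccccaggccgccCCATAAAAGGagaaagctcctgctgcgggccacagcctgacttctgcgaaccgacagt

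Of the 10 members, 8 were searched, and 5 of these 8 held TGACG on either strand, against 17.77% of 32851 promoters of the same length. Entries on chromosome 18, where Egr1 lies, were left out of the search, and none was used for Ier2. Whether Egr1 and Ier2 hold these sites was thus not examined. Fos held it at -129 and -66 from the start site, Junb at -106, Nr4a1 at -233, -213, -69 and -40, Fosb at -60 and Atf3 at -7. Among the 8 searched, a CArG box was found in Zfp36 alone, at -58, against 1.47% of promoters. The full cAMP response element TGACGTCA and the AP-1 site TGANTCA, searched on both strands and the first of which contains TGACG, were found in none of the 8, against 1.55% and 6.75% of promoters. These matches are a description of letters in a short window. In GRCm38 the gene bodies span chr12:85473890-85477273 (Fos), chr4:95049034-95052222 (Jun), chr8:84974484-84978718 (Junb), chr8:70698949-70700616 (Jund), chr15:101254269-101274795 (Nr4a1) and chr7:28376784-28380253 (Zfp36). The RefSeq starts used for Nr4a1 and Zfp36 lie within these spans, and that used for Jund lies before its span. The starts used for Atf3 and Fosb lie within their gene bodies (chr1:191170296-191218039 and chr7:19302696-19310051). Their windows were chr1:191183334-191183583 and chr7:19310046-19310295, both on the minus strand. The Jund window ends at 70697738 and does not adjoin the gene body, which starts at 70698949.

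The libraries held 114408 to 1921698 counts (median 651164.5), and a member's counting error is large in the shallow ones. Mmp2 lay at 222 to 974.7 CPM (counts scaled to library size, with TMM factors) in the 42 libraries with the gene and at 4.09 to 51.0 CPM in the 38 without, and Mmp9 at 649 to 4000 CPM against 79.3 to 993 CPM, with no overlap within a tissue. All 10 cartilage markers were higher in the growth plate than in either bone, yet 5 growth plate libraries, WT replicates 2, 3 and 7, MMP2-/- replicate 5 and MMP9-/- replicate 7, had a lower summed level (2265 to 8098 CPM) than cortical bone WT replicate 5 (9431 CPM). Other cell types also differed in content. Summed erythroid markers ran from 11450 to 137300 CPM in the growth plate (median 57600), from 63810 to 166400 in the calvaria (median 124650) and from 30020 to 161700 in the cortical bone (median 72300). Neutrophil markers had medians of 3147, 6293.5 and 9528 CPM in these tissues, and skeletal muscle markers had medians of 11630, 17865 and 5201 CPM. In such bulk samples, fewer cells of a type and less RNA per cell cannot be told apart.

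All members but Fosb and Atf3 were detected in every library. Fosb, a Fos paralog, had 238 counts in all 80 libraries together and none in 17 of them, where a count of 0 allows 3 counts, or 1.90 to 8.31 CPM, for counting error only. Atf3, a stress-induced bZIP factor, had 460 counts and none in 3 libraries. The spread among libraries of a group also differed between the genes. The biological coefficient of variation was 0.378 for Fos, 0.322 for Jun and 0.337 for Nr4a1, above the trend of genes of like abundance (0.253, 0.232 and 0.250), whereas it was 0.170 for Junb, 0.184 for Jund and 0.166 for Ier2, below the trend of 0.227, 0.234 and 0.226. The plot of every library shows this as long tails in Fos and Nr4a1 and as narrow groups in Junb and Ier2.

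**Figure D1:**
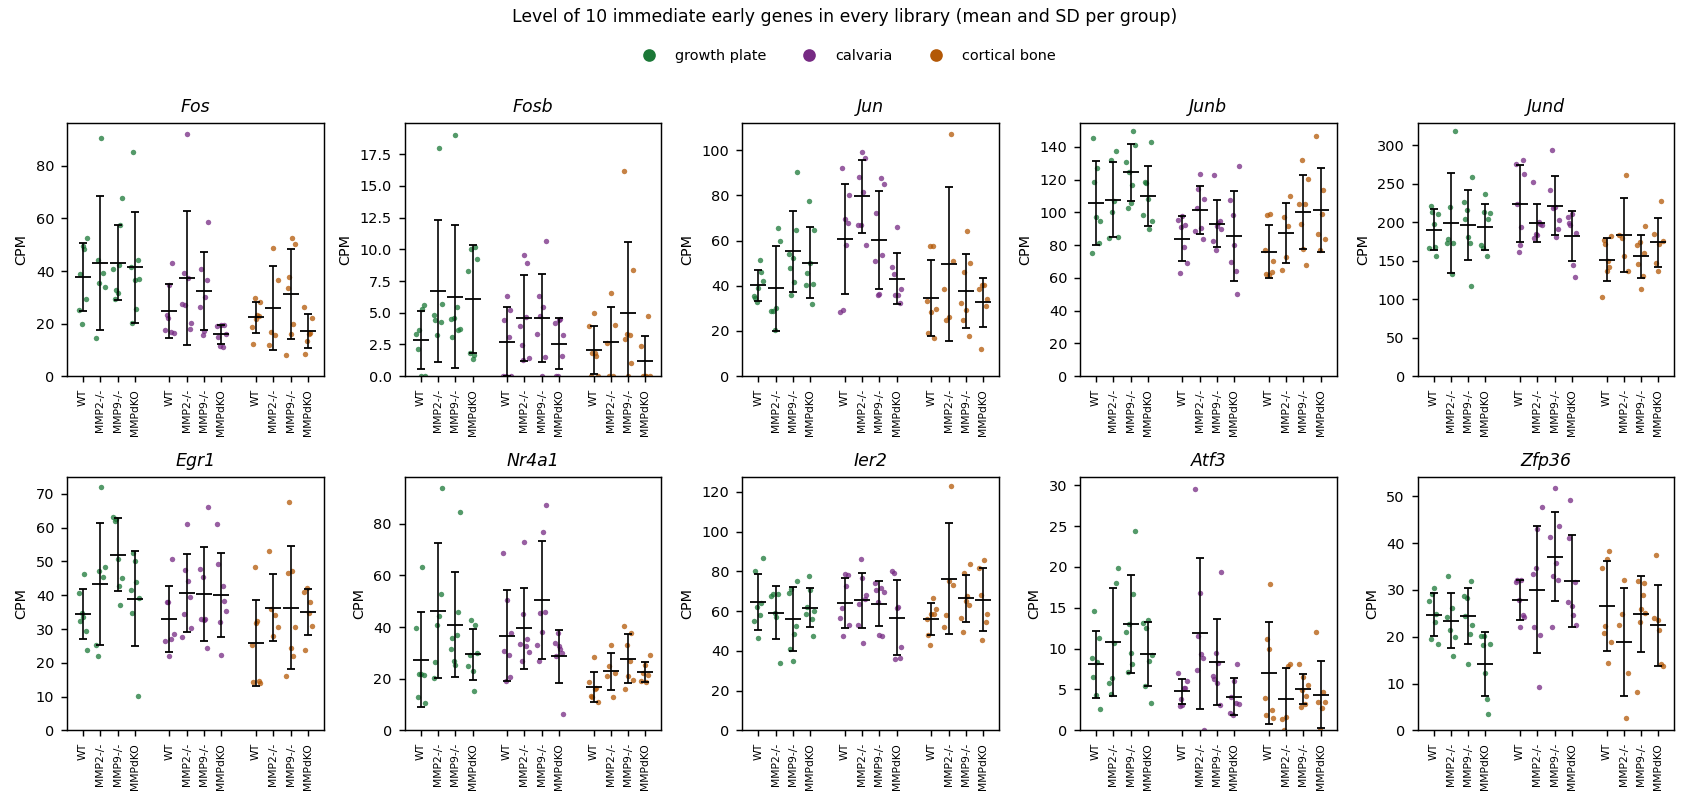
Level of each of the 10 genes (CPM, linear axis) in all 80 libraries, by tissue (color) and genotype (x axis), where points are libraries and bars give the mean and SD of a group of 5 to 7 libraries. Fos reached 92.2 CPM in a calvaria library and 90.7 CPM in a growth plate library of MMP2-/- mice. Over all genotypes, the range of every gene overlapped between tissues. Within MMPdKO, growth plate and calvaria did not overlap for Fos (20.1 to 85.2 and 11.2 to 19.5 CPM) and Zfp36 (3.40 to 20.2 and 22.5 to 49.2 CPM). The share of all genes without overlap there was not computed, and 29.6% of all genes passed in that comparison.

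Fos was higher in the growth plate than in both bones. Fos, the founding AP-1 subunit, ran from 14.5 to 90.7 CPM in the 27 growth plate libraries (median 39.0), from 11.2 to 92.2 CPM in the 28 calvaria libraries (median 21.2) and from 8.10 to 52.6 CPM in the 25 cortical bone libraries (median 21.7). The ranges overlapped widely, and the medians of both bones lay close together below that of the growth plate. Averaged over the 4 genotypes, Fos differed by 0.62 (SE 0.16, adjusted p = 0.00147) on the log2 scale for growth plate minus calvaria and by 0.76 (SE 0.18, adjusted p = 0.000438) for growth plate minus cortical bone, while cortical bone minus calvaria gave -0.14 (95% interval -0.51 to 0.22). The 3 comparisons share their libraries and are thus not independent. Fosb had means of 5.44 ± 4.598 (SD, n = 27), 3.62 ± 2.96 (n = 28) and 2.79 ± 3.62 CPM (n = 25) in growth plate, calvaria and cortical bone. Only 38 counts lay in the cortical bone, where 9 of 25 libraries were at 0, and Fosb met the count minimum only through 1 library each of the 2 tissues in which its mean was higher. Its differences are thus given as values: 1.21 (SE 0.38, adjusted p = 0.00986) for growth plate minus cortical bone and 0.54 (95% interval -0.10 to 1.19) for growth plate minus calvaria.

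The Jun family did not follow one order. Jun, the main partner of Fos, was highest in the calvaria, at 28.2 to 99.4 CPM (median 62.1), followed by 20.3 to 90.2 CPM (median 42.0) in the growth plate and 11.9 to 107 CPM (median 33.3) in the cortical bone. Its calvaria libraries overlapped with those of both other tissues. On the log2 scale it differed by -0.41 (SE 0.14, adjusted p = 0.0144) for growth plate minus calvaria and by -0.68 (SE 0.15, adjusted p = 0.000255) for cortical bone minus calvaria, and growth plate and cortical bone did not differ beyond their spread (0.28, 95% interval -0.03 to 0.59). Junb, which often restrains Jun activity, was at 112 ± 21.4 CPM (SD, n = 27) in the growth plate, 91.1 ± 18.8 (n = 28) in the calvaria and 91.1 ± 22.5 (n = 25) in the cortical bone. The growth plate was higher by 0.31 (SE 0.08) on the log2 scale than either bone, with adjusted p of 0.00132 against the calvaria and 0.00230 against the cortical bone. Jund, the family member that is expressed without a stimulus in many cells, was at 195 ± 40.7 CPM in the growth plate and 207 ± 39.4 in the calvaria, which did not differ beyond their spread, and at 164 ± 34.0 in the cortical bone. The cortical bone was lower than the calvaria (log2 difference -0.32, SE 0.08, adjusted p = 0.00159), and the growth plate was higher than the cortical bone by 0.23 (SE 0.08, adjusted p = 0.0195), a call that was lost without 1 MMP2-/- mouse (adjusted p = 0.0925).

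Among the other transcription factors, Nr4a1 and Atf3 had the largest values, which for Atf3 rest on few counts. Nr4a1, an orphan nuclear receptor, ran from 10.5 to 93.8 CPM in the growth plate (median 30.0), from 6.42 to 87.5 CPM in the calvaria (median 33.2) and from 10.96 to 40.5 CPM in the cortical bone (median 21.2). No cortical bone library exceeded 40.5 CPM, while the lowest libraries of the 3 tissues lay close together. Nr4a1 differed by -0.78 (SE 0.16, adjusted p = 0.000143) on the log2 scale for cortical bone minus calvaria and by 0.64 (SE 0.17, adjusted p = 0.00172) for growth plate minus cortical bone. Atf3 was at 10.3 ± 5.26, 7.30 ± 6.07 and 5.19 ± 4.24 CPM (SD) in growth plate, calvaria and cortical bone. It had 72 counts in the cortical bone, where no library reached the count minimum. As for Fosb, its entry into the test depended on the tissues where its mean was higher, and its differences are given as values. They were 1.17 (SE 0.27, adjusted p = 0.0002985) for growth plate minus cortical bone and 0.52 (SE 0.23, adjusted p = 0.0551) for growth plate minus calvaria. Egr1, a zinc finger factor induced by serum and load, had means of 42.1 ± 13.9, 38.5 ± 11.8 and 33.1 ± 13.1 CPM, and passed for growth plate minus cortical bone only (0.36, SE 0.13, adjusted p = 0.0316). With the mouse as a block, Egr1 did not pass this comparison (0.33, adjusted p = 0.0712), and leaving out 1 mouse ended the call for 7 of the 33 mice (adjusted p up to 0.115).

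Zfp36 and Ier2 did not follow the Fos family. Zfp36, which encodes tristetraprolin, a protein that binds AU-rich elements and speeds the decay of transcripts including those of immediate early genes, was highest in the calvaria. It ran from 9.30 to 51.7 CPM there (median 32.0), from 3.40 to 33.1 CPM in the growth plate (median 21.4) and from 2.62 to 38.3 CPM in the cortical bone (median 23.5). The libraries overlapped, with the upper part of the calvaria range above all growth plate libraries. Its log2 difference from the calvaria was -0.57 (SE 0.13, adjusted p = 0.000173) in the growth plate and -0.40 (SE 0.13, adjusted p = 0.0197) in the cortical bone. The second call was lost without 1 MMP2-/- mouse (adjusted p = 0.0750). Ier2, a small nuclear protein, was at 60.4 ± 13.1, 62.4 ± 14.1 and 65.2 ± 16.9 CPM (SD) in growth plate, calvaria and cortical bone, and no pair of tissues differed beyond the spread. The 95% intervals of its log2 differences lay between -0.30 and 0.25.

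In counts, 2 members (Fos and Junb) were higher and 2 (Jun and Zfp36) lower in the growth plate than in the calvaria, in a comparison in which 41.6% of all genes tested passed, 20% higher and 21.6% lower. In the growth plate against the cortical bone 7 members were higher and none lower, where 35.8% of all genes passed in either direction, 18.1% higher and 17.7% lower. The entry of Fosb and Atf3 into the test depended on the tissues where they were high. Without both, Fos, Junb, Jund, Egr1 and Nr4a1 were higher. Jun, Ier2 and Zfp36 were the members that did not pass there. In the cortical bone against the calvaria 4 members (Jun, Jund, Nr4a1 and Zfp36) were lower and none was higher, where 22.9% of all genes passed, 10.6% higher and 12.4% lower. The median log2 fold change of the members was 0.03, 0.33 and -0.36 in these comparisons, and that of all genes was -0.01, -0.01 and 0.02. Tests were those of edgeR, with adjusted p values over all genes tested.

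**Figure D2:**
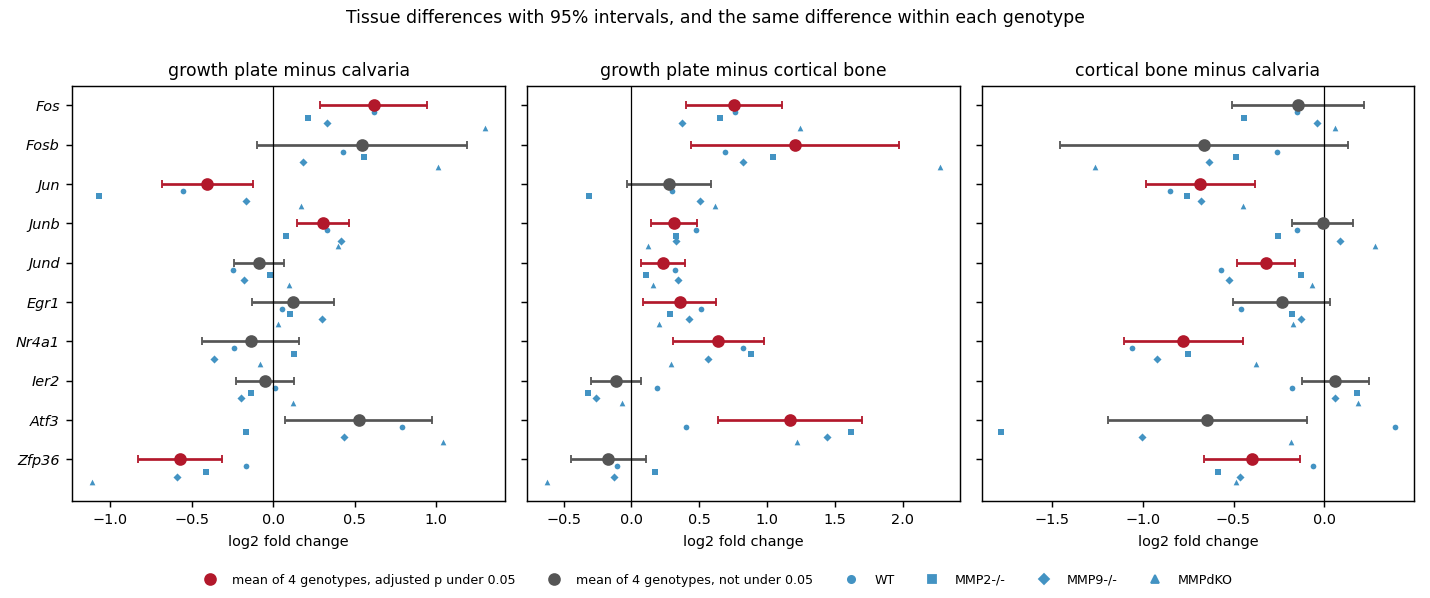
Log2 fold change of each gene in the 3 tissue comparisons (x axis), where large points with 95% intervals give the mean of the 4 genotypes (red for an adjusted p under 0.05) and small blue symbols give the same difference within each genotype. Fos, Fosb, Junb, Egr1 and Atf3 lay to the right in both growth plate panels, though Fosb, Egr1 and Atf3 did not pass against the calvaria. Jun and Nr4a1 lay to the left, at -0.68 and -0.78, in the panel of the 2 bones.

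The content of other cell types also differed in these comparisons. In the growth plate 8 of 8 erythroid and 8 of 10 neutrophil markers were lower than in the calvaria, and 7 of 8 and 9 of 10 were lower than in the cortical bone. Skeletal muscle markers were higher in the growth plate than in the cortical bone in 9 of 12 cases, and lower in the cortical bone than in the calvaria in 9 of 12. Osteoclast markers were higher in the growth plate than in the calvaria in 4 of 4 cases and endothelial markers in 6 of 6. Against the cortical bone 2 of 4 and 4 of 6 were higher. In the cortical bone 4 of 4 and 4 of 6 were higher than in the calvaria. Neither of these lists was used as a covariate. When the mean log2 level of the erythroid markers was added to the fit, a covariate chosen after seeing the data, the difference of Fos between growth plate and calvaria was -0.01 (adjusted p = 0.990) and that of Junb was 0.17 (adjusted p = 0.258), whereas Jun and Zfp36 still passed. For growth plate minus cortical bone Fos remained at 0.45 (adjusted p = 0.0311) with this covariate, and 5 members passed. For cortical bone minus calvaria 6 passed with it, where Fos was at -0.46 (adjusted p = 0.0348), Egr1 at -0.38 (adjusted p = 0.0365) and Atf3 at -0.94 (adjusted p = 0.00723), which had not passed before, and Zfp36 at -0.33 (adjusted p = 0.0751) no longer did. When neutrophil markers were the covariate, Fos alone of the 7 members still passed for growth plate minus cortical bone. Fosb was at 1.22 (adjusted p = 0.0931) and Nr4a1 at 0.60 (adjusted p = 0.0620), about as large as before, while Junb was at 0.20 (adjusted p = 0.264), Jund at 0.06 (adjusted p = 0.803), Egr1 at 0.25 (adjusted p = 0.407) and Atf3 at 0.76 (adjusted p = 0.122). With the muscle score 3 passed there (Fos, Junb and Atf3), and Egr1 was at 0.34 (adjusted p = 0.0778), Fosb at 1.02 (adjusted p = 0.0629), Jund at 0.19 (adjusted p = 0.101) and Nr4a1 at 0.23 (adjusted p = 0.285). For growth plate minus calvaria, Zfp36 was at -0.31 (adjusted p = 0.0834) and Junb at 0.21 (adjusted p = 0.0687) with the neutrophil score, and Jun at -0.32 (adjusted p = 0.0711) with the muscle score. Jund (-0.23, adjusted p = 0.0357) newly passed with the neutrophil score and Atf3 (0.77, adjusted p = 0.00410) with the muscle score. For cortical bone minus calvaria, no member passed with the muscle score, where Nr4a1 was at -0.13 (adjusted p = 0.753) and Jun at -0.47 (adjusted p = 0.126), and 4 passed with the neutrophil score. The part of cell content in these differences was not tested beyond these fits.

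Within single genotypes few members passed, while most differences kept their direction. Fos was higher in the growth plate than in the calvaria in all 4 genotypes, by 0.61 in WT, 0.22 in MMP2-/-, 0.33 in MMP9-/- and 1.30 in MMPdKO on the log2 scale, and higher than in the cortical bone by 0.76, 0.66, 0.37 and 1.24. Jun was lower in the cortical bone than in the calvaria in all 4, from -0.85 in WT to -0.45 in MMPdKO, and Nr4a1 from -1.06 to -0.37. The log2 difference of Zfp36 between growth plate and calvaria was -0.17 in WT and -1.11 in MMPdKO. Jun was at -1.07 in MMP2-/- and at 0.17 in MMPdKO for growth plate minus calvaria, and Atf3 was not of one sign for cortical bone minus calvaria, at 0.39 in WT and -1.78 in MMP2-/-. No member passed the test of the interaction of tissue and genotype, with adjusted p from 0.541 for Jun to 0.986 for Egr1 and no unadjusted p under 0.05, in a test in which 6 of 11307 genes (0.0531%) passed. With the mouse as a block no member passed either, and Jun had an unadjusted p of 0.0404. Within WT, Jund and Nr4a1 passed for cortical bone minus calvaria (6.83% of all genes) and no member passed for growth plate minus calvaria (5.24%) or minus cortical bone (2.97%). Within MMP2-/-, Jun passed for growth plate minus calvaria (5.65%) and none in the other comparisons (3.03% and 3.35%). Within MMP9-/-, Junb passed for growth plate minus calvaria (26.2%), Atf3 for growth plate minus cortical bone (10.1%) and Jund for cortical bone minus calvaria (6.24%). The Atf3 call rested on 89 counts in the growth plate and 19 in the cortical bone. Within MMPdKO, Fos and Zfp36 passed for growth plate minus calvaria (29.6%), Fos for growth plate minus cortical bone (12.2%) and none for cortical bone minus calvaria (4.84%).

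The question of whether loss of MMP2, MMP9 or both changes these genes was asked within each tissue, with each knockout set against the same WT libraries. None of the 10 members passed in any of the 9 comparisons with edgeR, and DESeq2 called none either. At an unadjusted p under 0.05 there were 0 to 3 members, where 5.59% to 23.4% of all genes were, and the 3 were among 8 tested in the MMP9-/- cortical bone (8.80% of all genes). The share of all genes that passed was 0.0287%, 0.258% and 6.62% for MMP2-/-, MMP9-/- and MMPdKO in the growth plate, 0.216%, 0.0188% and 0.0657% in the calvaria, and 0.0419%, 0.0105% and 0.0314% in the cortical bone, where Fosb and Atf3 were below the count minimum and 8 members were tested. The standard errors, from 0.14 to 0.72 on the log2 scale, show which sizes of change could have been detected.

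Zfp36 in the MMPdKO growth plate came closest to the threshold. It ran from 18.4 to 30.5 CPM in the 7 WT libraries (median 24.8) and from 3.40 to 20.2 CPM in the 7 MMPdKO libraries (median 18.3), which reached into the lower part of the WT range. The difference was -0.77 on the log2 scale (SE 0.25, adjusted p = 0.0597), and the counts behind it were 122 in the WT and 57 in the MMPdKO libraries. It passed when MMPdKO replicate 1 (adjusted p = 0.0388) or MMP9-/- replicate 7 (0.0496) was left out, and it was at -0.65 (adjusted p = 0.368) once the neutrophil score entered the fit. In these growth plates 4 of 10 neutrophil, 3 of 8 erythroid and 4 of 7 macrophage markers were lower than in WT, and 5 of 6 endothelial markers were higher. Fos in the calvaria ran from 16.6 to 42.9 CPM in WT (median 22.1), from 17.8 to 92.2 in MMP2-/- (27.6), from 15.7 to 58.5 in MMP9-/- (30.2) and from 11.2 to 19.5 in MMPdKO (16.0). The MMPdKO libraries were the narrowest of these groups and overlapped with WT, at -0.57 on the log2 scale (SE 0.34, adjusted p = 0.897). The smallest unadjusted p in the cortical bone was that of Nr4a1 in MMP9-/- (0.72, SE 0.24, adjusted p = 0.356), and that in the calvaria was Atf3 in MMP2-/- (1.29, SE 0.47, adjusted p = 0.307).

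**Figure D3:**
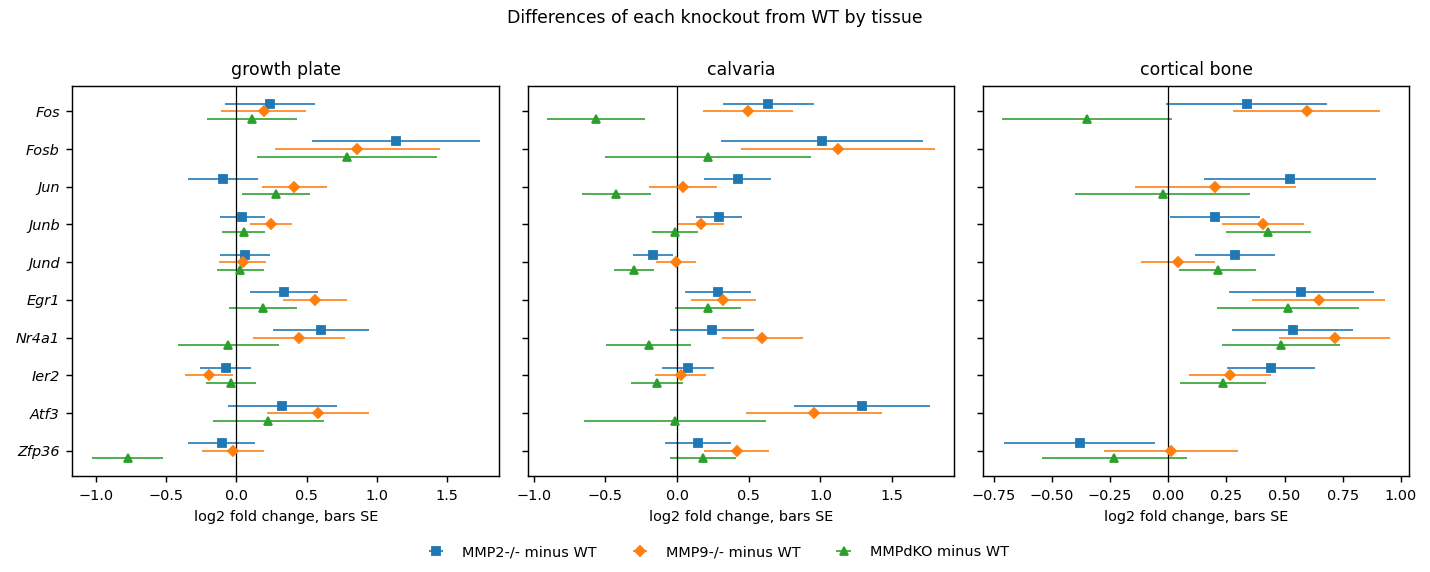
Log2 fold change of each knockout minus WT within each tissue (x axis), with bars of 1 SE, for the genes tested. No value passed at an adjusted p under 0.05, and the Zfp36 value of -0.77 in the MMPdKO growth plate lay farthest from 0 in units of its error in that tissue.

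Since 24 mice gave both a growth plate and a calvaria library and 20 gave each of the other pairs, it could be asked whether a mouse with a high level in one tissue was also high in another. The deviation of each library from the mean of its group was compared between tissues for all 10 genes, 30 relations in all. Fos alone passed, between growth plate and calvaria, with Pearson's r = 0.689 (permutation p = 0.00024, adjusted p = 0.0072, n = 24) and Spearman's rho = 0.681 (permutation p = 0.00042). In 18 of the 24 mice both libraries lay on the same side of their group means. Without the 2 mice farthest from the median, r was 0.621 (permutation p = 0.00196), which missed the threshold after adjustment (adjusted p = 0.0588). Within genotypes of 6 mice each, r was 0.518 in WT (exact permutation p = 0.296), 0.779 in MMP2-/- (exact p = 0.0875), 0.673 in MMP9-/- (exact p = 0.156) and 0.855 in MMPdKO (exact p = 0.0444), and rho was 0.543, 0.829, 0.371 and 0.714 (exact p = 0.297, 0.0583, 0.497 and 0.136). For Fos, growth plate and cortical bone gave r = 0.405 and rho = 0.308 (permutation p = 0.0772 and 0.187, adjusted p = 0.508 and 0.630, n = 20), and r = 0.0590 without the 2 farthest mice. Calvaria and cortical bone gave r = 0.478 and rho = 0.462 (permutation p = 0.0321 and 0.0421, adjusted p = 0.481 and 0.568, n = 20), and r = 0.375 without them. The other 27 relations had r from -0.299 (Ier2) to 0.397 (Jun), and none had an unadjusted p under 0.05 from Pearson's r.

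A single MMP2-/- mouse had the highest Fos level of all growth plate and of all calvaria libraries. The relation was not computed without this mouse alone. Its Fos level was 90.7 CPM in the growth plate, 92.2 CPM in the calvaria and 48.6 CPM in the cortical bone, each the highest of its group. Fosb was also the highest of its group in the growth plate (17.98 CPM) and in the calvaria and cortical bone (9.58 and 6.60 CPM). Jun, in contrast, was at 99.4 CPM in the calvaria of this mouse and at 30.2 and 26.4 CPM in its growth plate and cortical bone. Fos and Fosb were thus high in all 3 tissues of this mouse, and Jun in 1. Nr4a1 was also the highest of its group in the calvaria of this mouse (73.0 CPM). The remaining members are not described for it here. The mouse also stood apart in cell content. Its summed neutrophil markers were at 10330 CPM in the growth plate and 20500 CPM in the cortical bone and its macrophage markers at 2736 and 4481 CPM, each the highest of the tissue, and its erythroid markers were the lowest of the calvaria (63810 CPM). The part of this content in its Fos level was not tested.

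**Figure D4:**
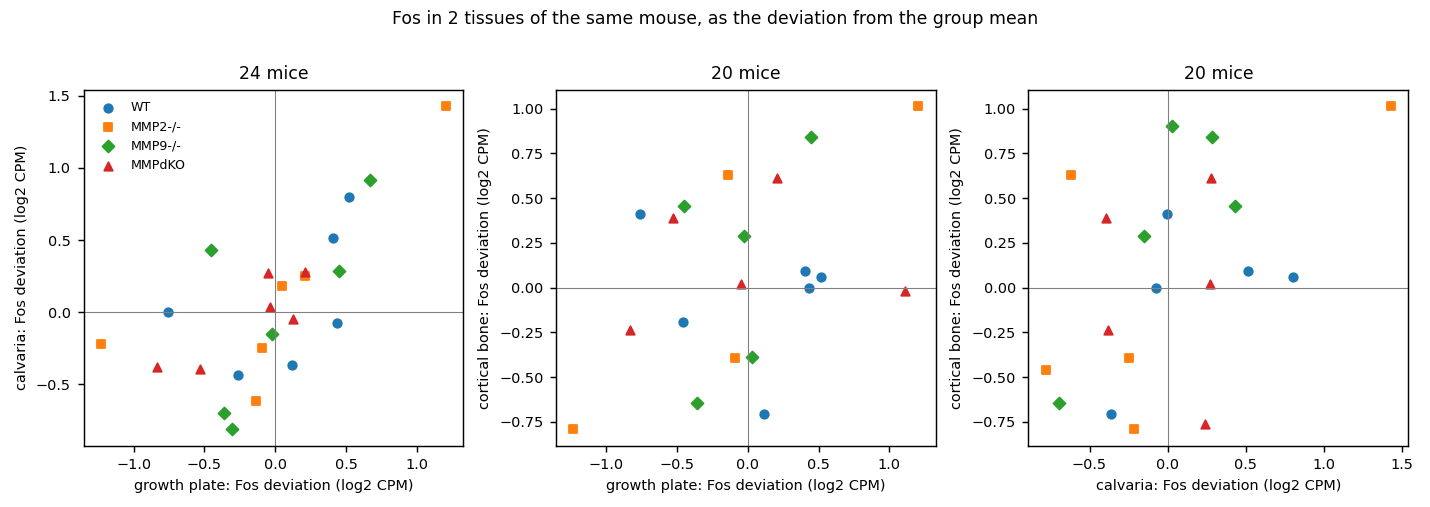
Deviation of Fos from its group mean (log2 CPM) in one tissue against another of the same mouse, for 24, 20 and 20 mice, with genotypes as symbols. In the left panel 18 of 24 mice lie in the lower left or upper right quadrant, and the MMP2-/- mouse with the highest Fos stands at the upper right of all panels.

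Total counts of the growth plate and calvaria of a mouse gave r = -0.0331 (rho = 0.0435, permutation p = 0.878 and 0.838). Of 12 such measures, the summed endothelial (r = 0.595, rho = 0.621, permutation p = 0.00229 and 0.00169, adjusted p = 0.0275), macrophage (r = 0.532, rho = 0.470, p = 0.00787 and 0.0219, adjusted p = 0.0392) and neutrophil markers (r = 0.546, rho = 0.143, p = 0.00981 and 0.503, adjusted p = 0.0392) were also related between these tissues of a mouse, and without the 2 farthest mice their r was 0.434, 0.274 and 0.153. Within the growth plate Fos went against the erythroid markers (r = -0.668, rho = -0.598, permutation p = 0.00017 and 0.00145, adjusted p = 0.00612 over 36 relations, n = 27) and with the endothelial markers (r = 0.567, rho = 0.593, p = 0.00203 and 0.00136, adjusted p = 0.0365), and without the 2 farthest libraries r was -0.555 and 0.551. No other marker list passed in the growth plate. There the osteoblast (r = 0.475, rho = 0.57), osteoclast (r = 0.457, rho = 0.524) and B cell markers (r = -0.482, rho = -0.341) had adjusted p of 0.087, 0.0983 and 0.087. Cartilage markers gave r = -0.33 and rho = -0.411 (permutation p = 0.0941 and 0.0343, adjusted p = 0.26). No marker list passed in the calvaria or the cortical bone. After the relation of Fos to the erythroid or endothelial markers within each tissue was removed, growth plate and calvaria still gave r = 0.613 and 0.595 (rho = 0.633 and 0.487, permutation p = 0.00162 and 0.00104 for the first and 0.00245 and 0.0169 for the second, n = 24), and r = 0.534 and 0.432 without the 2 farthest mice. These fits were chosen after seeing the data.

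Within a tissue, no relation of another member to Fos was past the threshold after adjustment. Fos was compared with the 9 other members in each tissue, and of 27 relations 22 were positive, 5 had an unadjusted p under 0.05 and none passed after adjustment. The share of all genes with a positive r was not computed, so the number of positive relations cannot be judged. The largest was with Fosb in the calvaria (r = 0.516, rho = 0.483, permutation p = 0.004 and 0.00956, adjusted p = 0.108, n = 28), with r = 0.381 without the 2 libraries farthest from the median of Fos. Leaving out such libraries raised r in others, from 0.405 to 0.624 for Junb in the cortical bone (permutation p = 0.00197, adjusted p = 0.0532), from 0.334 to 0.497 for Jun there and from 0.384 to 0.477 for Jun in the growth plate. As a description over all 80 libraries after group means were removed, r with Fos was 0.39 for Jun, 0.37 for Junb, 0.30 for Fosb and -0.04 for Jund. Ranked by r among 11306 genes, Jun was number 77, Junb 124, Fosb 414 and Egr1 534. Ier2 was number 1214, Atf3 2015, Nr4a1 2051, Zfp36 3905 (r = 0.09) and Jund 7212. The 45 pairs of members had a median r of 0.170 (-0.332 to 0.393). The 8 genes outside the list whose deviations were most like those of Fos, out of 11297 ranked, were Abr (r = 0.56), Cacfd1 (0.54), Rai14, Dhx34, Lmo7, Elk3, Rnf149 and Ano6 (0.47), all above the r of every member, Jun included. Elk3 encodes a ternary complex factor that binds with serum response factor.

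**Figure D5:**
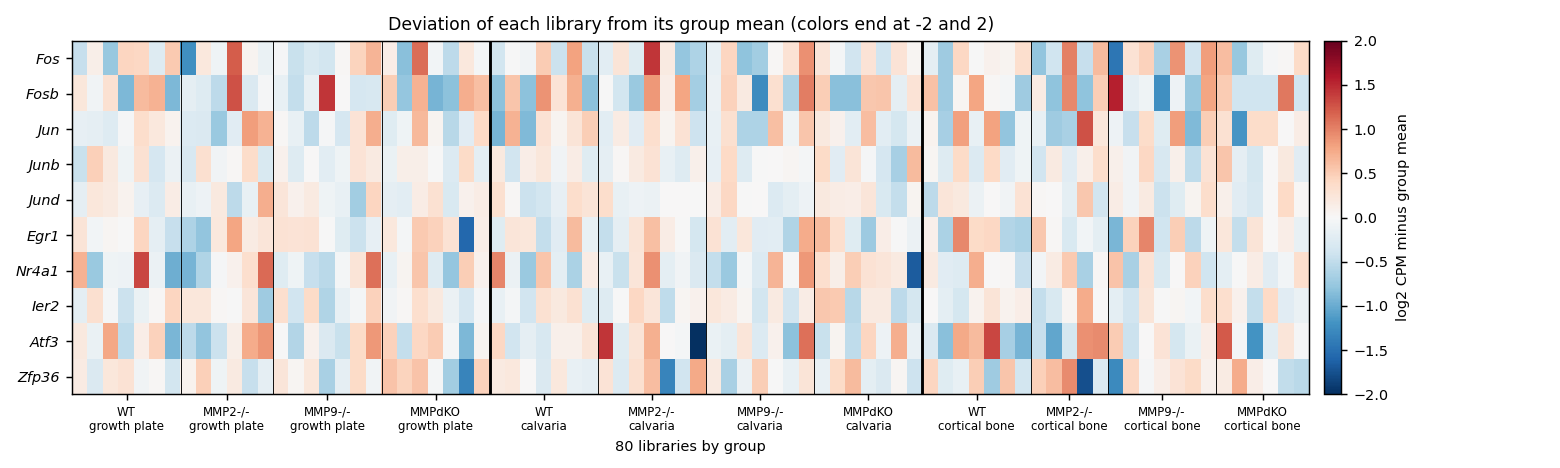
Deviation of each of the 80 libraries (columns, by group) from its group mean for the 10 genes (log2 CPM, color from -2 to 2). Few columns are of one color from top to bottom, and the median r of the 45 pairs of genes was 0.170.

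The wider lists of rapid response genes are described by their counts, beside the 41.6%, 35.8% and 22.9% of all genes that passed for growth plate minus calvaria, growth plate minus cortical bone and cortical bone minus calvaria. Of 9 other AP-1 and bZIP partners tested, 4 were higher and 2 lower in the growth plate than in the calvaria, 3 were higher and none lower than in the cortical bone, and 1 was higher and 2 lower in the cortical bone than in the calvaria. Batf3, a bZIP factor of immune cells, was at 11.03 ± 5.89 CPM (SD, n = 27) in the growth plate and 2.94 ± 2.38 in the calvaria (n = 28). Of 14 effectors, 7 were higher and 4 lower than in the calvaria, 8 higher and 1 lower than in the cortical bone, and none higher and 4 lower in the cortical bone than in the calvaria. Among them Ccn2, a matricellular protein that growth plate chondrocytes also make, was at 267 ± 126, 111 ± 40.2 and 111 ± 42.9 CPM in growth plate, calvaria and cortical bone, and Btg2, an antiproliferative gene, was lower in the growth plate than in the calvaria (log2 difference -0.95, SE 0.15).

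The transcription factors, inhibitors and upstream factors had calls in both directions. Of 10 other rapid response transcription factors 2 were higher and 2 lower than in the calvaria, where Klf4 stood at 0.75 (SE 0.11, adjusted p = 1.53e-08) on the log2 scale and Cebpd at -0.50 (SE 0.09, adjusted p = 1.01e-05), and 1 was higher and 2 lower than in the cortical bone. Of 10 feedback inhibitors of signaling 2 were higher and 4 lower than in the calvaria, among them the phosphatase Dusp2 (-0.90, SE 0.14) and the cytokine inhibitor Socs3 (0.74, SE 0.12), and 3 were higher and 2 lower than in the cortical bone. Each of these 2 lists had 1 higher and 1 lower in the cortical bone than in the calvaria. The ZFP36 paralogs and other binders of AU-rich elements had 1 of 4 lower than in the calvaria, Hnrnpd (-0.23, SE 0.07), and none in the other comparisons. Of 13 upstream factors and kinases 1 was higher and 4 were lower than in the calvaria, with Elk3 at 0.56 (SE 0.10) and Mapk14 at -0.40 (SE 0.07), 2 were higher and 3 lower than in the cortical bone, and 1 was lower in the cortical bone than in the calvaria.

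Heat shock genes respond to stress of cells through other factors than the immediate early genes. Of 12 tested none was higher and 5 were lower in the growth plate than in the calvaria, a share like the 41.6% of all genes, though in 1 direction. Against the cortical bone 2 were higher and 5 lower (35.8% of all genes), and 2 were higher and 4 lower in the cortical bone than in the calvaria (22.9%). Hspb1, a small heat shock protein abundant in muscle, was at 32.3 ± 22.8, 78.8 ± 31.9 and 20.4 ± 12.9 CPM (SD) in growth plate, calvaria and cortical bone, and the stress-inducible Hspa1b was lower in the growth plate than in the calvaria (log2 difference -0.82, SE 0.21, adjusted p = 0.000715). In the comparisons with WT, 4 genes of these wider lists passed, all in the MMPdKO growth plate, where 6.62% of all genes did. They were 1 of 9 feedback inhibitors, 2 of 14 effectors and 1 of 4 binders of AU-rich elements, with none of the 9 AP-1 partners, 10 transcription factors, 13 upstream factors and 12 heat shock genes, a share near that of all genes. Dusp2 fell by 1.02 (SE 0.29, adjusted p = 0.0318), Btg2 fell by 1.25 (SE 0.31, adjusted p = 0.0184) and Hnrnpd fell by 0.59 (SE 0.16, adjusted p = 0.0272) on the log2 scale, and Gadd45g, a stress sensor named after its value was seen, rose by 0.87 (SE 0.15, adjusted p = 0.00356).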

How the data were processed

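RNA of growth plates, calvariae and femoral cortical bones was sequenced with a bulk form of MARS-seq, which tags transcript 3′ ends. The authors mapped the reads to GRCm38 (STAR 2.7.3a) and used htseq-count, and the deposited raw counts of 14688 genes were the values used here. Whether molecular barcodes were collapsed is not given in the sources used here. The deposited normalized values were not used. All libraries come from separate mice within a tissue, and the mouse was taken from the sample descriptions.

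Tests were edgeR 4.0.16 quasi-likelihood tests (R 4.3.3, TMM factors) of genes that reached 15 counts in 1 or more libraries. A gene passed when its p, adjusted over all genes tested by the Benjamini-Hochberg method, was under 0.05. The tissue comparisons came from 1 fit of 80 libraries in 12 groups, each averaged over 4 genotypes, and the knockout comparisons from 1 fit per tissue. SE is the log2 fold change divided by the root of the F statistic. Levels are CPM, and log2 CPM used a prior count of 2. Correlations used deviations from group means and 100000 two-sided permutations, or all orders for 6 mice. Counting error limits Fosb and Atf3.

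The mouse links tissues: 17 mice gave 3 libraries and 13 gave 2. Deviations over all genes correlated at 0.0168 on average between tissues of a mouse (n = 64 pairs) and at -0.00191 between different mice of a genotype. The mouse served as a block in an alternative since the libraries come from the same animals. Also tried were other count minimums, RLE size factors, DESeq2 1.42.0, a fold minimum of 1.5, marker scores as covariates, WT libraries alone, and each mouse or library left out. The scripts were tested on simulated data.

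The 10 genes, the other gene lists and the tests were chosen with earlier results of these data known. Named genes were the 10 members, up to 3 genes per list by adjusted p, the 8 genes most like Fos, and Mmp2 and Mmp9. Gadd45g falls outside this rule.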

Additional observations from a re-analysis of the deposited data

Results flagged for a closer look

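Libraries that stood far from the others of their group were sought in the 120 combinations of gene and group (5 to 7 libraries each). The gap to the nearest library was used, and 14 were found. The cutoffs give about 1 in 20 by chance for normal values only. CPM from low counts are not of this kind, so the number due to chance is not known. The 9 high values were as follows. Fos was at 85.2 CPM in MMPdKO growth plate replicate 3 (34 counts), against 44.2 CPM in the nearest library of its group. Fos was at 92.2 CPM in MMP2-/- calvaria replicate 4 (77 counts), against 39.2 CPM in the nearest library of its group. Fosb was at 17.98 CPM in MMP2-/- growth plate replicate 4 (22 counts), against 5.68 CPM in the nearest library of its group. Fosb was at 19.0 CPM in MMP9-/- growth plate replicate 4 (12 counts), against 5.42 CPM in the nearest library of its group. Junb was at 123 CPM in MMP9-/- calvaria replicate 2 (78 counts), against 95.0 CPM in the nearest library of its group. Jund was at 252 CPM in MMP2-/- calvaria replicate 1 (128 counts), against 200 CPM in the nearest library of its group. Nr4a1 was at 84.5 CPM in MMP9-/- growth plate replicate 7 (45 counts), against 45.8 CPM in the nearest library of its group. Nr4a1 was at 73.0 CPM in MMP2-/- calvaria replicate 4 (61 counts), against 44.9 CPM in the nearest library of its group. Atf3 was at 19.3 CPM in MMP9-/- calvaria replicate 7 (38 counts), against 9.42 CPM in the nearest library of its group. The 5 low values rest on few counts. Jun was at 11.9 CPM in MMPdKO cortical bone replicate 2 (7 counts), against 30.9 CPM in the nearest library of its group. Egr1 was at 10.2 CPM in MMPdKO growth plate replicate 6 (3 counts), against 34.7 CPM in the nearest library of its group. Nr4a1 was at 6.42 CPM in MMPdKO calvaria replicate 7 (2 counts), against 28.7 CPM in the nearest library of its group. Ier2 was at 34.1 CPM in MMP2-/- growth plate replicate 6 (12 counts), against 57.2 CPM in the nearest library of its group. Zfp36 was at 8.10 CPM in MMP9-/- cortical bone replicate 1 (1 count), against 23.1 CPM in the nearest library of its group. MMP2-/- calvaria replicate 4 and MMP2-/- growth plate replicate 4 come from the same mouse.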

How the results depend on the processing

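DESeq2, RLE size factors and no filter on low counts left the number of members that passed at 4, 7 and 4 for growth plate minus calvaria, growth plate minus cortical bone and cortical bone minus calvaria. With the mouse as a replicate block it was 4, 6 and 4, and with the number of the sample title as a block 4, 5 and 4. The block changed the call of Egr1 and, with the title number, also that of Jund (0.20, adjusted p = 0.0634), both for growth plate minus cortical bone, and no other call of a member. A fold of at least 1.5 left 1, 4 and 2. WT libraries alone gave 0, 0 and 1. The muscle score as a covariate gave 3 for growth plate minus cortical bone and 0 for cortical bone minus calvaria, and the neutrophil score gave 1 for growth plate minus cortical bone. The erythroid score, chosen after seeing the data, gave 2, 5 and 6, and the Fos difference for growth plate minus calvaria turned to -0.0104. The cause of these changes was not tested. Without the 5 growth plate libraries low in cartilage markers and the cortical bone library high in them, also chosen afterwards, the numbers were 4, 6 and 5, and without the library of fewest counts 4, 7 and 4. At least 10 counts in 5 libraries gave 4, 6 and 4, since Fosb was then not tested. Knockout comparisons without the WT mice whose names end in 20 called none. With 1 mouse left out they ranged from 4 to 5, 5 to 8 and 4 to 5. Without the MMP2-/- mouse that gave growth plate replicate 6, calvaria replicate 7 and cortical bone replicate 5, Jund did not pass for growth plate minus cortical bone (adjusted p = 0.0925) and Zfp36 did not pass for cortical bone minus calvaria (0.0750). With 1 library left out, the number for MMPdKO minus WT in the growth plate ranged from 0 to 1, and it was 0 in the other knockout comparisons. Of the 30 relations across mice 0 passed without the 2 mice farthest from the median. Fosb and Atf3 carry too few counts for small differences to be detectable.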
